A study of Xenopus laevis with 28 samples.

Results

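The heart of the African clawed frog Xenopus laevis was described from 2 of the 28 RNA sequencing libraries of a tissue survey. One heart library belongs to the Taira dataset and one to the Ueno dataset, and each came from 1 female frog of the J strain. They were set against the 26 libraries of 13 other tissues, which are brain, eye, intestine, kidney, liver, lung, muscle, ovary, pancreas, skin, spleen, stomach and testis, with 1 library per tissue and dataset. In each dataset the heart and 12 of these tissues came from the same female, while testis came from a male sibling of that female. No treatment was recorded for any frog, and the frogs' age is not stated in the labels used here. The heart libraries were chosen by their tissue label alone.

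Whole tissue was minced before RNA extraction, and the labels do not separate atrium from ventricle. The libraries therefore hold RNA of cardiac muscle cells together with that of valves, vessels, nerves and blood. In such bulk samples fewer cells of a type and less RNA per cell cannot be told apart. With 2 hearts, the adjusted p-values measure a spread that is mostly estimated from the other tissues.

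The heart pumps blood by the contraction of striated muscle cells that are joined end to end at intercalated discs. Calcium released inside each cell acts on troponin of the thin filament, and myosin of the thick filament then pulls on actin, at a cost in ATP that is met mainly by mitochondrial oxidation. The atria also secrete natriuretic peptides, hormones that lower blood volume and pressure. Xenopus laevis is allotetraploid, so most genes are present as an L copy and an S copy on subgenomes from different ancestors, marked by the ending of each symbol.

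Expression was given in TPM, a transcript abundance already divided by transcript length and scaled to the same total in every library. The sequencing depth is therefore unknown, and a 0 is a listed value rather than proof of no transcript. Of 45831 gene models, 33317 reached 1 TPM in at least 2 libraries and were tested with limma on log2(TPM + 1). A model was called when its adjusted p was under 0.05 and its difference was at least 1 on that scale, which understates the change of low genes. Differences are heart minus the mean of the other 13 tissue means, with the standard error (SE) from n = 2 heart and 26 other libraries. The 31 gene lists matched 637 distinct models, of which 599 passed this filter, and sums of a list are over all of its matched models. Listed symbols that were not found in the table were not analysed here.

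Heart expressed 21993 models at 1 TPM or more in the Taira library and 19244 in the Ueno library, within the range of 11299 to 26855 in the other libraries. The 10 most abundant models took 15.6% and 16.4% of all heart TPM, against 1.52% to 62.8% elsewhere. Muscle is the other striated tissue of the survey, so heart was also set against muscle alone.

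Filament proteins and hormones were prominent among the largest differences. The 15 named models with the largest differences among those whose hearts both lay above all other libraries were 5 light chains (both copies of myl3 and myl7 and myl4.L), 2 heavy chains (myh15.L and myh6.S), 3 troponin subunits (tnni3.S, tnnc1.L and tnnt2.L), 3 natriuretic peptides (nppa.L and both copies of nppb), the LIM protein csrp3.L and the leucine-rich repeat protein lrrc10.S. Among 33317 models, 2653 (7.96%) were called higher and 2131 (6.40%) lower in heart, and the median difference of all models was -0.18. The list counts against the other tissues given below are to be read beside these shares. Of the models called higher, 36.3% had their highest mean in heart, 15.9% in muscle and 14.5% in brain. Both heart libraries lay above all 26 other libraries for 403 models (1.21%), of which 281 carry a symbol. The tissue next to heart for these 403 models was brain for 90, muscle for 88, lung for 41 and eye for 40. In 35 of them every other library was under 1 TPM. In 19 of the gene lists described here models were called higher and none lower. At an unadjusted p under 0.05, 9 of their 335 distinct models were lower. The 19 lists include the markers described next. All gene lists were chosen with earlier results of these data known, so the list counts are descriptions and give no independent check. Without the Taira heart library 1421 models were called higher and 916 lower, and without the Ueno heart library the counts were 2087 and 890.

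The markers of the heart were high in both heart libraries. They were chosen with earlier results of these data known, so they give no independent check of the label. The essential light chain myl3, the regulatory light chain myl7, the hormone nppa and cardiac troponin I (tnni3) have 8 copies in all, and all 8 lay above every other library in both hearts. Together they reached 95389 and 103410.0 TPM in the Taira and Ueno hearts, against a median of 3.69 TPM and a highest sum of 27.1 TPM (Ueno eye) elsewhere. Every one of the 8 was called higher, with a median difference of 13.14.

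**Figure D1:**
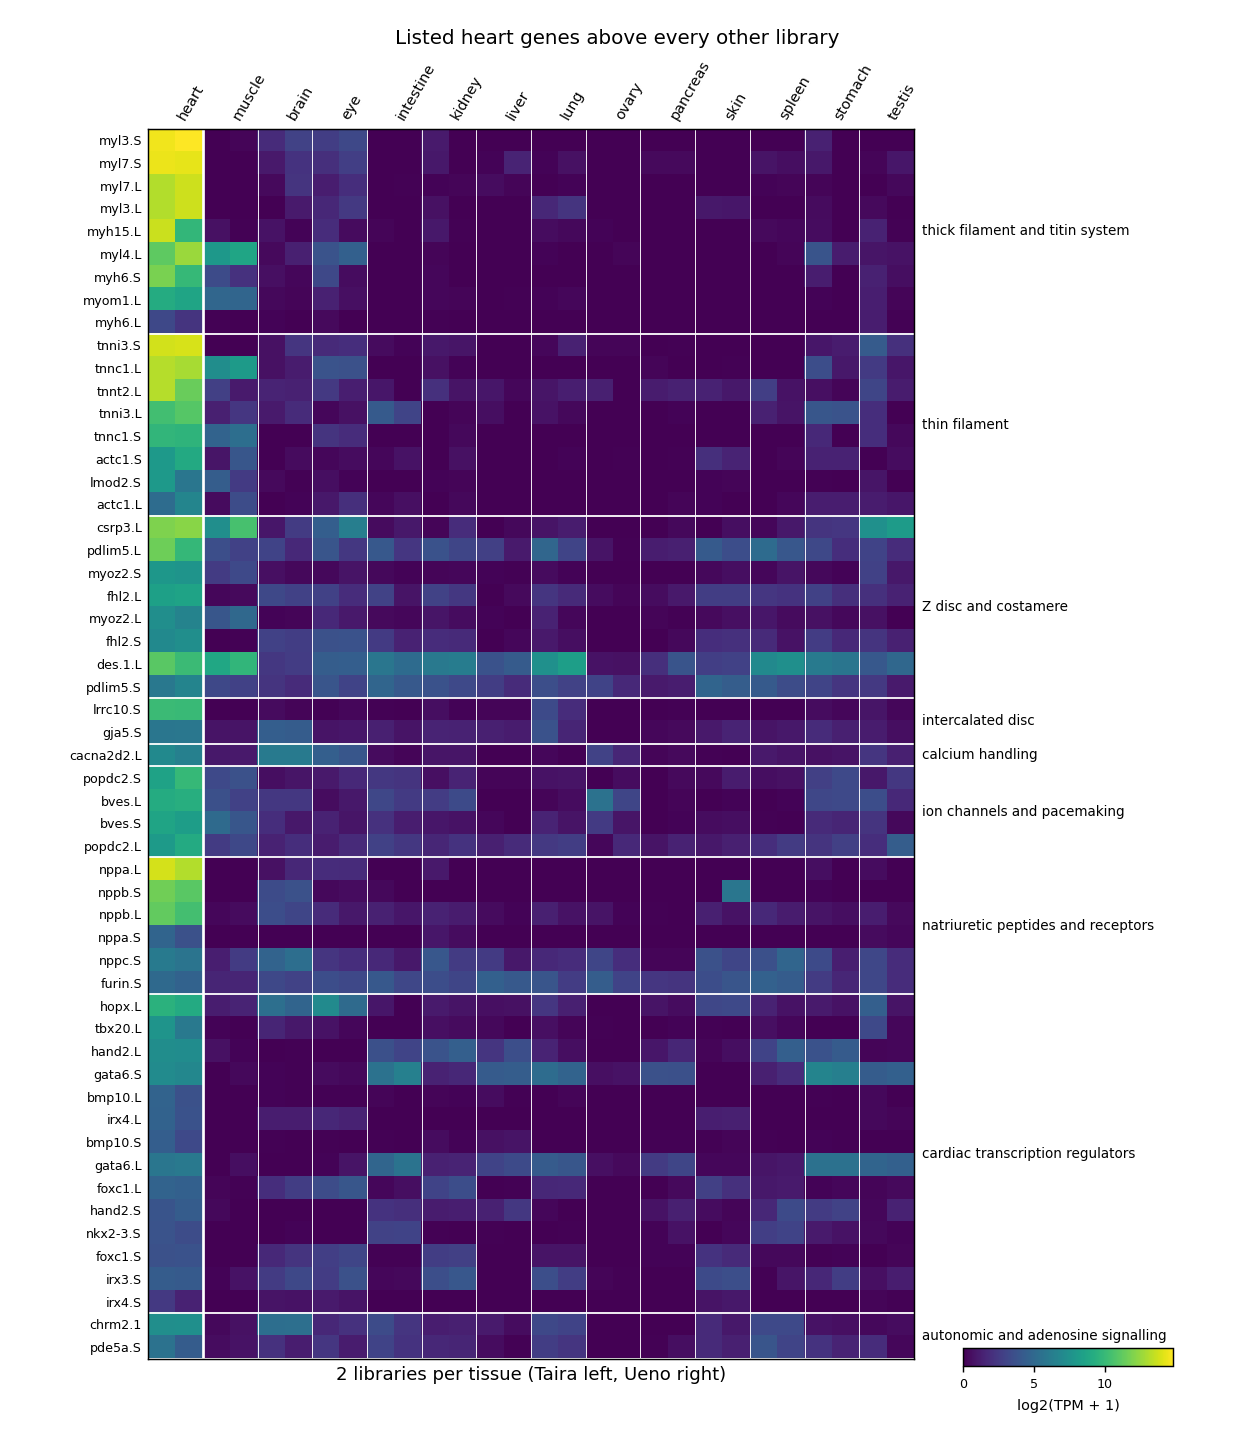
Expression of the 54 models of the heart-related lists whose 2 heart libraries lay above all 26 others, as log2(TPM + 1), with each column a library (Taira left and Ueno right in each tissue) and each row a model. The pair of heart columns at the left is the brightest in every row, while several rows, such as myl4.L, tnnc1.L and csrp3.L, also show signal in muscle.

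Among the listed models, the most abundant thick filament transcripts of the heart were those of myl3, myl7 and myl4 and of the heavy chains myh15 and myh6. Of 16 listed symbols 12 were found, and unnamed models were not searched for further thick filament genes. Of 20 models of the thick filament and titin system, 15 were called higher and 0 lower in heart, with a median difference of 5.57, and 9 lay above all other libraries. The light chain myl3.S, which in mammals serves the ventricle, had 24057 and 29665 TPM in the Taira and Ueno hearts, while the lowest, median and highest of the 26 other libraries were 0, 0 and 8.19 TPM. The light chain myl7.S, known from the mammalian atrium, had 21554 and 20081 TPM in heart and 0, 0.225 and 5.65 TPM elsewhere. For both light chains the hearts were far above the highest other library, which was an eye. The differences were 14.19 ± 0.31 (adjusted p = 1.83e-15) for myl3.S and 13.75 ± 0.35 (adjusted p = 1.11e-14) for myl7.S.

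The other copies followed, with 9033 and 13675 TPM of myl7.L and 9133 and 13368 TPM of myl3.L in heart. The heavy chain myh15.L, the ventricular heavy chain of birds, had 12759.6 and 928 TPM in the Taira and Ueno hearts and 0, 0.1 and 2.69 TPM elsewhere. The alpha heavy chain myh6.S had 3699 and 995 TPM in heart and 0, 0 and 9.63 TPM elsewhere. Both heavy chains were much more abundant in the Taira heart than in the Ueno heart, and both hearts still exceeded every other library. The difference was 11.41 ± 0.58 (adjusted p = 1.23e-10) for myh15.L and 10.39 ± 0.51 (adjusted p = 7.79e-11) for myh6.S.

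The light chain myl4, atrial in the adult mammalian heart, was shared with muscle. Its L copy had 2334 and 6373 TPM in heart and 241 and 427 TPM in muscle, and its difference from the other tissues was 10.60 ± 0.46 (adjusted p = 1.58e-11). Its S copy had 494 and 639 TPM in heart and 1317 and 2583 TPM in muscle, so that the copies ranked the pair of tissues in opposite order. By contrast, myl2, the ventricular regulatory light chain of mammals, was listed at 0 and 0 TPM (L copy) and at 0 and 0.2 TPM (S copy) in heart. Muscle held 28.7 and 50.7 TPM of myl2.L and 142 and 217 TPM of myl2.S. The M band protein myom1 also differed by copy, with 571 and 408 TPM of myom1.L in heart against 29.2 and 27.6 TPM in muscle, and 98.2 and 32.1 TPM of myom1.S in heart against 384 and 329.9 TPM in muscle.

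On the thin filament, cardiac troponin I, slow and cardiac troponin C (tnnc1), cardiac troponin T (tnnt2) and cardiac actin (actc1) were all called higher in every tested copy. In all, 11 of 12 thin filament models were called higher and 0 lower, with a median difference of 7.24. The S copy of tnni3 had 14852 and 15649 TPM in heart and 0, 0.165 and 17.9 TPM elsewhere, and its L copy had 1323 and 1929 TPM in heart. The calcium sensor tnnc1.L had 9317 and 7561 TPM in heart and 0, 0.09 and 272 TPM elsewhere, the highest being muscle. The differences were 13.15 ± 0.41 (adjusted p = 1.62e-13) for tnni3.S and 11.74 ± 0.44 (adjusted p = 1.92e-12) for tnnc1.L.

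The tropomyosin-binding subunit tnnt2.L had 9309.7 and 2858 TPM in the Taira and Ueno hearts and at most 7.68 TPM in the Taira testis library outside heart, a difference of 11.09 ± 0.60 (adjusted p = 2.75e-10). The model labelled as cardiac actin, actc1.S, was less abundant, at 258 and 523 TPM in heart, against 0.76 and 14.5 TPM in muscle. Its difference from the other tissues was 7.95 ± 0.46 (adjusted p = 8.29e-10). Unnamed models were not searched for further actins. The slow skeletal troponin I tnni1.S, which the mammalian heart uses before birth, had 0.74 and 0.73 TPM in heart and 219 and 286 TPM in muscle. The leiomodin lmod2.S, which lengthens the thin filament, had 253 and 55.8 TPM in heart and at most 19.6 TPM in the Taira muscle library elsewhere (6.54 ± 0.39, adjusted p = 1.25e-09). Its relatives lmod3.L and lmod3.S, at 6.67 and 0.97 TPM of lmod3.L and 5.34 and 1.1 TPM of lmod3.S in heart, were higher in muscle and were no longer called without the Taira heart library.

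Fast skeletal muscle transcripts were scarce in heart. The list, with 22 tested models, summed to 119.9 and 74.2 TPM in heart, against 127353 and 40508 TPM in muscle, and 9 models of the list were at 0 in both hearts. Against the mean of 13 tissues, 4 models were called higher and 6 lower. The lower count was 1 with muscle left out of that mean, 0 with muscle and eye left out and 1 when either heart was left out. The higher count was 1 without the Taira heart. The Z disc actinin actn3.L, with 65.3 and 43.1 TPM in heart and 1888 and 779.5 TPM in muscle, was called higher against all tissues (4.17 ± 0.45, adjusted p = 3.23e-06) although muscle exceeded heart.

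At the Z disc, where thin filaments are anchored, most listed genes were higher in heart than in the average tissue. Of 32 Z disc and costamere models, 23 were called higher and 2 lower, with a median difference of 4.47, and 8 lay above all other libraries. The titin cap tcap.S had 5944 and 11583 TPM in heart, within the 4767 and 13078 TPM of the Taira and Ueno muscle libraries, and a difference of 10.69 ± 0.67 (adjusted p = 2.16e-09) from all tissues. The LIM protein csrp3.L, a stretch-related partner of the titin cap, had 4086 and 4813 TPM in heart and 0, 0.89 and 1482 TPM elsewhere, a difference of 9.80 ± 0.60 (adjusted p = 1.81e-09). Heart and muscle thus overlapped in tcap.S but not in csrp3.L.

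Other Z disc genes, such as pdlim5.L, myoz2.S and fhl2.L, separated the heart from muscle too. The LIM domain protein pdlim5.L had 3082 and 950.5 TPM in heart and 0.05, 6.88 and 35.5 TPM elsewhere, a difference of 7.94 ± 0.62 (adjusted p = 3.91e-08). The calcineurin-binding calsarcin myoz2.S had 232 and 203 TPM in heart and at most 8.69 TPM in the Ueno muscle library elsewhere (7.16 ± 0.31, adjusted p = 1.39e-11). The LIM protein fhl2.L had 353 and 393 TPM in heart, against 0.22 and 0.29 TPM in muscle and at most 8.37 TPM in the Taira brain library outside heart (6.80 ± 0.39, adjusted p = 7.99e-10). All 3 were above every other library in both hearts. The small muscle protein smpx.L overlapped, with 1299 and 1393 TPM in heart and 749.7 and 1437 TPM in muscle (8.04 ± 0.41, adjusted p = 1.51e-10 from all tissues). The intermediate filament desmin, des.1.L, had 2139 and 1124 TPM in heart and 459 and 868 TPM in muscle (5.68 ± 0.38, adjusted p = 5.12e-09 from all tissues). Its S copy went the other way, with a mean of 849 TPM in heart and 1734 TPM in muscle. The stress-responsive ankyrin repeat protein ankrd1 was low, with 3.37 and 0.42 TPM of ankrd1.L and 0.49 and 0 TPM of ankrd1.S in heart. The L copy of muscle calsarcin, myoz1.L, had 0.48 and 0.09 TPM in heart and 1636 and 2034 TPM in muscle, and together with the chaperone gene cryab.S, listed at 0 in both hearts, it made up the models called lower. Neither call held when either heart library was left out or when muscle and eye were left out of the other tissues.

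The intercalated disc gave fewer calls. Of 17 models, 5 were called higher and 0 lower, beside 7.96% higher and 6.40% lower of all models, with a median of 0.81. The leucine-rich repeat protein lrrc10.S, a cardiac-restricted Z disc and disc protein in mammals, had 1113 and 1086 TPM in heart and 0, 0.085 and 9.05 TPM elsewhere, a difference of 9.74 ± 0.25 (adjusted p = 1.11e-14). The gap junction protein gja5.S (connexin 40) had 55.3 and 57.8 TPM in heart and 0, 1.1 and 20.7 TPM elsewhere, a difference of 4.53 ± 0.35 (adjusted p = 3.66e-08). For lrrc10.S and gja5.S the 2 hearts were close to each other and lay above all other libraries. The other copy, gja5.L, was led by brain, with a mean of 16.2 TPM in heart and 47.4 TPM in brain.

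Connexin 43 (gja1), the main ventricular connexin of mammals, showed another picture. Its L copy had 7.82 and 4.28 TPM in heart, below the highest other value of 166 TPM in the Taira brain library, and its S copy was listed at 0 in both hearts. The adhesion protein cxadr.L had 168 and 64.4 TPM in heart, against 0.9 and 0.76 TPM in muscle (3.19 ± 0.44, adjusted p = 4.58e-05 from all tissues). Desmoplakin and plakoglobin, the desmosome proteins, were led by skin: dsp.L had 26.3 and 2.19 TPM in heart and 389.8 TPM in the Taira skin library, and jup.S had 31.8 and 24.1 TPM in heart and 469 TPM in the Taira skin library.

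Genes of calcium handling could be followed in part, since 7 of 21 listed symbols were found. Of their 13 models, 8 were called higher and 0 lower. The calcium channel subunit cacna2d2.L had 130.5 and 87 TPM in heart and 0, 0.75 and 68.8 TPM elsewhere, the highest being brain. Its difference was 5.31 ± 0.29 (adjusted p = 4.14e-10). The S copy averaged 9.68 TPM in heart and 50.5 TPM in brain. Junctophilin 2, which ties the surface membrane to the calcium store, had 131 and 72 TPM of jph2.S in heart and 248 and 192 TPM in muscle (4.32 ± 0.36, adjusted p = 1.22e-07 from all tissues). Fewer models of the list were called without the Taira heart. All 13 models of this list were higher in the Taira heart than in the Ueno heart, as were 21692 of all 33317 models tested.

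For ion channels and pacemaking 11 of 26 listed symbols were found. Among their 19 tested models, 8 were called higher and 0 lower, and the Popeye domain proteins led. These are cyclic AMP-binding membrane proteins of heart and muscle. The S copy of popdc2 had 383 and 975 TPM in heart and 0, 0.775 and 11.8 TPM elsewhere (7.99 ± 0.36, adjusted p = 2.83e-11). The L copy of bves had 558 and 645 TPM in heart and 0, 3.29 and 46.8 TPM elsewhere (7.46 ± 0.45, adjusted p = 1.45e-09). Both copies of both genes were above all other libraries. The pacemaker channels were low in whole heart: hcn4.L had 0.25 and 0.3 TPM and hcn2.S had 9.29 and 11.1 TPM. The count of calls was 5 without the Taira heart.

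Natriuretic peptide transcripts were concentrated in heart. Of 12 models of these peptides, their processing and related vasoactive signals, 9 were called higher and 0 lower, with a median of 2.68, and 6 lay above all other libraries. Atrial natriuretic peptide nppa.L had 15411 and 9031 TPM in heart and 0, 0 and 2.68 TPM elsewhere (13.22 ± 0.26, adjusted p = 8.38e-16). Its other copy nppa.S had 26.5 and 12 TPM in heart and at most 0.88 TPM in the Taira kidney library elsewhere (4.16 ± 0.17, adjusted p = 4.60e-12). Both copies were above all other libraries, and the L copy was by far the more abundant in heart.

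B-type natriuretic peptide was high in both copies, with 3212 and 2137 TPM of nppb.S and 2494 and 1358 TPM of nppb.L in heart. The highest other values were 55 TPM in the Ueno skin library for nppb.S and 10.5 TPM in the Taira brain library for nppb.L. The differences were 10.81 ± 0.75 (adjusted p = 8.96e-09) for nppb.S and 9.83 ± 0.31 (adjusted p = 2.00e-13) for nppb.L. C-type natriuretic peptide, mostly a local signal of vessels and nerve, also stood highest in heart in its S copy, at 67.6 and 51.1 TPM against 40.1 TPM in the Ueno brain library (3.40 ± 0.55, adjusted p = 2.26e-04), while nppc.1 had 2.72 and 1.95 TPM in heart and 98.8 TPM in the Ueno brain library. The protease furin.S, a prohormone processor, had 33.2 and 24.9 TPM in heart and at most 23.9 TPM in the Taira spleen library, and the vessel-relaxing peptide adm.S had 50.7 and 53.3 TPM in heart (2.83 ± 0.25, adjusted p = 2.01e-07).

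Transcription regulators of the embryonic heart were still among the genes that set this tissue apart. Of 50 models, 27 were called higher and 1 lower, with a median difference of 1.36, and 14 lay above all other libraries. The cofactor hopx.L had 714 and 548 TPM in heart and 0, 1.10 and 135 TPM elsewhere, the highest being eye (7.38 ± 0.60, adjusted p = 6.91e-08). The T-box factor tbx20.L had 204 and 63 TPM in heart and 0, 0.13 and 8.55 TPM elsewhere (6.43 ± 0.46, adjusted p = 1.53e-08). The helix-loop-helix factor hand2.L had 155 and 148 TPM in heart and 0, 0.735 and 21.7 TPM elsewhere (5.60 ± 0.37, adjusted p = 4.91e-09). For all 3 regulators both hearts lay above the other 26 libraries.

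GATA factors were also expressed in stomach and intestine. The S copy of gata6 had 142 and 117 TPM in heart and at most 104 TPM in the Taira stomach library (4.36 ± 0.23, adjusted p = 2.62e-10), and gata4.L had 56.8 and 22.6 TPM in heart and at most 28.8 TPM in the Ueno intestine library (3.87 ± 0.39, adjusted p = 1.36e-06). The secreted growth factor bmp10, needed for the trabeculae of the mouse heart, had 26 and 11.7 TPM of bmp10.L in heart and at most 0.39 TPM in the Taira liver library (4.13 ± 0.18, adjusted p = 1.13e-11). The ventricular homeobox factor irx4.L had 24.4 and 12.5 TPM in heart and at most 2.17 TPM in the Taira eye library (3.88 ± 0.15, adjusted p = 4.60e-12). The related irx3.S had 18.9 and 17.2 TPM in heart (2.64 ± 0.33, adjusted p = 1.69e-05), while shox2.L, a sinus node factor in the mouse, had 0.42 and 0.31 TPM in heart. The Notch target hey2.L had 27.9 and 10.5 TPM in heart and at most 19.1 TPM in the Taira lung library (2.72 ± 0.42, adjusted p = 1.50e-04). The homeobox factor nkx2-3.S had 13 and 10.1 TPM in heart and at most 7.04 TPM in the Ueno intestine library (3.04 ± 0.16, adjusted p = 1.65e-10). The other copy, nkx2-3.L, averaged 0.805 TPM in heart and 3.715 TPM in spleen.

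The muscle histone methyltransferase smyd1.L had 356 and 146 TPM in heart and 279.8 and 254 TPM in muscle, with a difference of 6.89 ± 0.27 (adjusted p = 3.27e-12) from all tissues. The muscle activator mef2c.L went the other way, at 11.1 and 4.2 TPM in heart and 232 and 113 TPM in muscle. The cardiac progenitor factor isl1 had 0.34 and 0.26 TPM of isl1.L and 0 and 0.16 TPM of isl1.S in heart. The single regulator called lower, nr2f1.L, had 0.44 and 0.33 TPM in heart and 70.7 TPM in the Ueno brain library, and its call was lost when either heart library was left out.

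For autonomic and adenosine signalling 7 of 23 listed symbols were found, as 14 models. Of these models, 3 were called higher and 1 lower, with a median of 0.08, which was -0.01 under median-of-ratios scaling. Over all models 7.96% were called higher and 6.40% lower, so the single lower call is near the share of all models. The muscarinic receptor chrm2.1, through which the vagus slows the heart, had 158 and 166 TPM in heart and 0, 1.18 and 41.6 TPM elsewhere, the highest being brain (5.70 ± 0.27, adjusted p = 4.92e-11). The entry chrm2.S averaged 5.2 TPM in heart and 14.5 TPM in brain. The cyclic GMP phosphodiesterase pde5a.S had 48.1 and 19.3 TPM in heart and at most 14.3 TPM in the Taira spleen library (3.50 ± 0.42, adjusted p = 1.09e-05). The adenosine receptor adora1, which slows the mammalian heart, had 1.24 and 0.25 TPM of adora1.L in heart, against 29 TPM in the Taira kidney library.

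Most listed genes of mitochondrial oxidation were called higher in heart than in the average tissue. The called counts were 22 of 28 models for the TCA cycle and pyruvate dehydrogenase, 38 of 49 for complex I, 9 of 13 for complexes II and III, 13 of 15 for complex IV and 23 of 25 for ATP synthase and its carriers. None of these models was called lower by limma, and none was lower at an unadjusted p under 0.05, where complex I counted 48 higher models of 49. The median differences ranged from 1.80 (TCA cycle) to 2.16 (ATP synthase).

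Isoforms of striated muscle stood out in these lists. Subunit VIa of complex IV in its heart and muscle form, cox6a2.L, had 2224 and 4080.5 TPM in heart and 2305 and 7463 TPM in muscle (9.67 ± 0.49, adjusted p = 1.22e-10 from all tissues). The ADP/ATP carrier slc25a4.L had 806 and 2093 TPM in heart and 1780.3 and 7757 TPM in muscle (8.31 ± 0.65, adjusted p = 4.10e-08). Among the rest, the complex I subunit ndufs6.L had 99.6 and 94.1 TPM in heart and 2.11, 12.6 and 61 TPM elsewhere (2.76 ± 0.31, adjusted p = 4.21e-06), and among these 5 lists it alone lay above all other libraries in both hearts.

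The aspartate and glutamate carrier slc25a12.L had 236 and 415 TPM in heart (3.62 ± 0.35, adjusted p = 6.33e-07) and mitochondrial isocitrate dehydrogenase idh2.L had 729 and 1528 TPM in heart (2.85 ± 0.46, adjusted p = 2.25e-04). For both, the Ueno heart was the higher one, and the highest other value was that of the Ueno muscle library. Without the Ueno heart library the counts of calls were 8 (TCA cycle), 10 (complex I), 2 (complexes II and III), 3 (complex IV) and 9 (ATP synthase). Under median-of-ratios scaling they were 24 for complex I, 5 for complexes II and III and 13 for ATP synthase.

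Fatty acid use gave 19 of 36 models called higher and 1 lower, with a median of 1.37. The fatty acid carrier fabp3.L had 448 and 374 TPM in heart and 0.08, 10.1 and 128 TPM elsewhere (5.25 ± 0.48, adjusted p = 3.29e-07). Its S copy was led by muscle, with a mean of 380 TPM in heart and 702 TPM in muscle. The muscle carnitine palmitoyltransferase cpt1b.L had 192 and 253 TPM in heart and 131 and 298 TPM in muscle (4.25 ± 0.31, adjusted p = 1.48e-08). The nuclear receptor esrra.L, a regulator of mitochondrial genes, had 49.2 and 50.2 TPM in heart and 1.14, 8.45 and 47.9 TPM elsewhere (2.17 ± 0.43, adjusted p = 0.00149). The liver form cpt1a.L had 12.6 and 9.54 TPM in heart, against 65.3 TPM in the Taira testis library. The count of calls was 12 without the Taira heart and 7 without the Ueno heart.

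The creatine kinase, glycolysis and glycogen list was mixed, with 13 of 29 models called higher, 5 lower and a median of 0.07, which was -0.02 under median-of-ratios scaling and -0.12 under quantile normalization. Muscle creatine kinase ckm.S had 2414 and 3004 TPM in heart and 13641 and 6202 TPM in muscle (9.15 ± 0.59, adjusted p = 3.58e-09 from all tissues). The model labelled pygm.S, the symbol of the muscle glycogen phosphorylase of mammals, had 428 and 391 TPM in heart but 0.68 and 1.4 TPM in muscle (6.26 ± 0.33, adjusted p = 2.62e-10). Both pygm copies together averaged 3.72 TPM in muscle and 508 TPM in brain. Whether the symbol names the muscle form in the frog was not tested. Phosphofructokinase pfkp.L had 175 and 145 TPM in heart and 1.97 and 2.1 TPM in muscle. Its mean was 192 TPM in eye, above the 160 TPM of heart, and 136 TPM in brain. Hexokinase hk1.S had 97.1 and 88 TPM in heart and 1.24 and 1.48 TPM in muscle. The other copy, hk1.L, averaged 63.15 TPM in heart and 69.9 TPM in muscle.

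The differences from all tissues were 4.20 ± 0.26 (adjusted p = 1.75e-09) for pfkp.L and 3.86 ± 0.47 (adjusted p = 1.26e-05) for hk1.S. The lower count of this list was 1 without the Taira heart and 3 without the Ueno heart. In ketone and branched amino acid breakdown 6 of 22 models were called higher and 1 lower, beside 7.96% and 6.40% of all models. The ketone body enzyme oxct1.L had 112 and 121 TPM in heart and 4.5, 19.9 and 183 TPM elsewhere (2.33 ± 0.56, adjusted p = 0.00629), and its call was lost when either heart was left out. The higher count of the list was 3 under median-of-ratios scaling, 1 without the Taira heart and 0 without the Ueno heart.

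**Figure D2:**
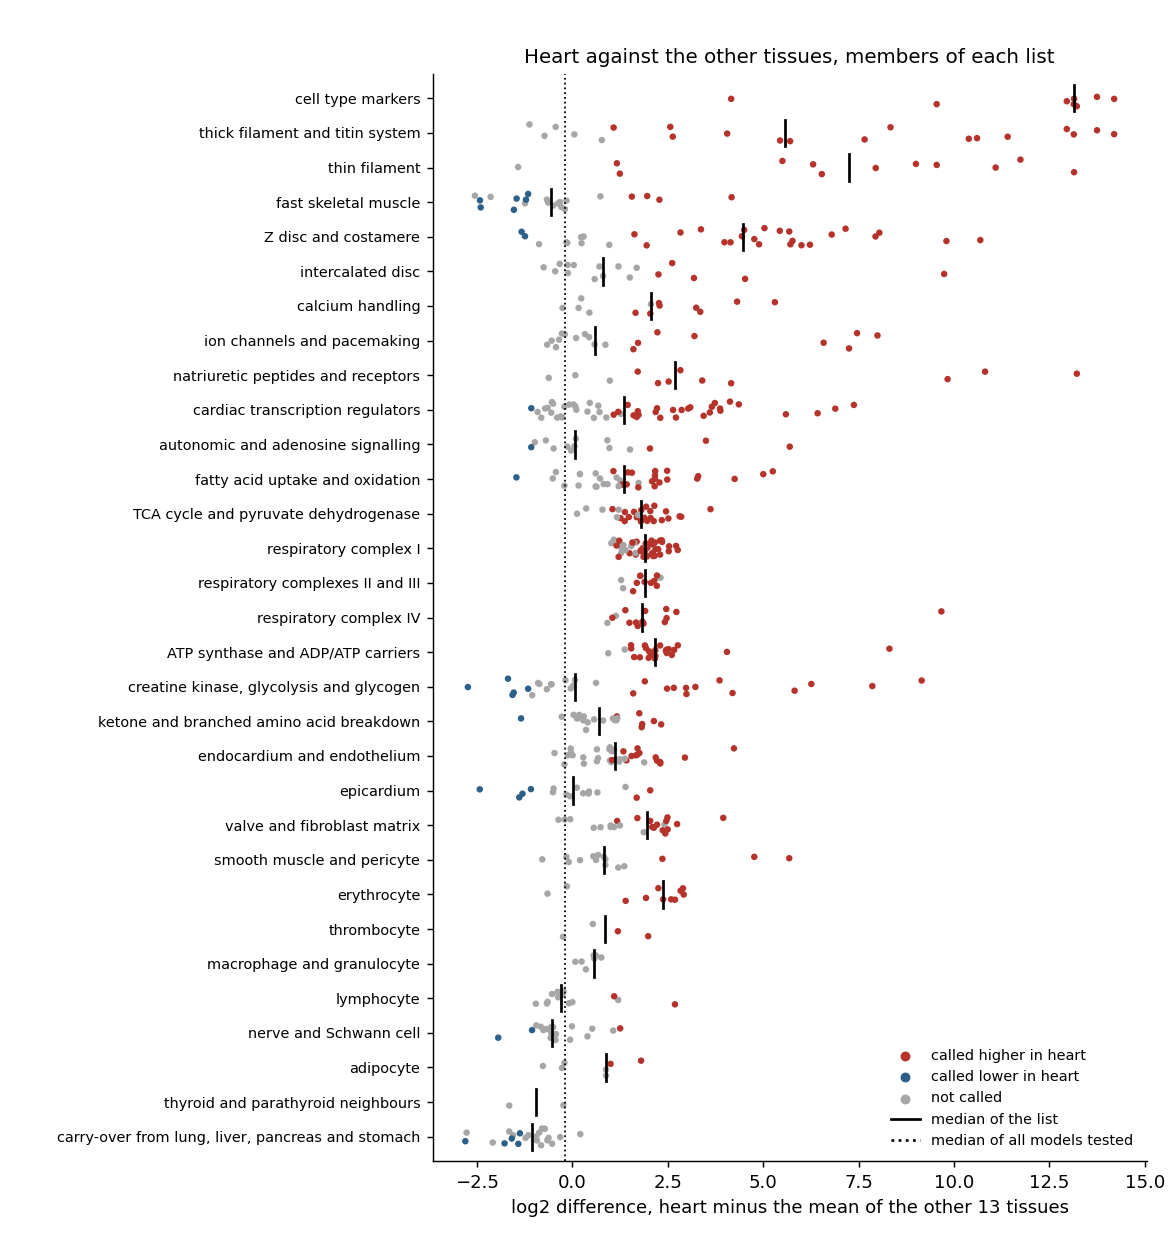
Differences in log2(TPM + 1) of heart minus the mean of the other 13 tissues, with 1 point for each tested model of each list, coloured by its call, a bar at the median of the list and a dotted line at the median of all models (-0.18). The markers and the filament lists reach the highest values, the oxidative lists cluster near 2, and the lymphocyte, nerve and carry-over lists lie around or below the dotted line.

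Transcripts of the other cells of the heart were present to different degrees. Of 36 endocardium and endothelium models, 14 were called higher and 0 lower, with a median of 1.13. Their sum was 661 and 414 TPM in heart, against a median of 203 and a highest of 2107 TPM (Taira lung). The TGF-beta coreceptor eng.1 had 105 and 75.5 TPM in heart and at most 55.2 TPM in the Ueno spleen library (4.23 ± 0.46, adjusted p = 3.20e-06). The entry eng.S averaged 30.2 TPM in heart and 87.2 TPM in lung. The endothelial factor sox7.S had 26.3 and 21.8 TPM in heart and 0.09, 1.31 and 45.1 TPM elsewhere (2.95 ± 0.37, adjusted p = 1.54e-05). The endothelial cadherin cdh5.L had 18.6 and 2.35 TPM in the Taira and Ueno hearts, within the range of the other tissues, and the list gave 3 calls without the Taira heart and 8 with a pseudocount of 5 TPM.

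Valve and fibroblast matrix genes gave 13 of 24 models called higher and 0 lower, with a median of 1.96. The collagen-binding protein sparc.L had 618 and 405 TPM in heart and 7.26, 99.4 and 676 TPM elsewhere (2.46 ± 0.41, adjusted p = 2.97e-04). Periostin, a valve and scar matrix protein, had 168 and 18.5 TPM of postn.L in the Taira and Ueno hearts, and its call was lost without the Taira heart, as were all but 2 calls of the list. Smooth muscle and pericyte genes gave 3 of 15 models called higher, which were both copies of des.1, also a Z disc gene, and myl9.1. For this list and the next, the shares of all models are 7.96% called higher and 6.40% called lower. The epicardium list gave 2 of 16 models called higher, tcf21.L and tbx18.S, and 4 lower, all of them keratins, and 1 higher and 2 lower without the Taira heart. The lower models included krt18.L, with 6.85 and 6.67 TPM in heart and 1.32, 40.5 and 411 TPM elsewhere (-2.42 ± 0.33, adjusted p = 4.17e-05).

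Blood cell transcripts were part of the heart libraries. Of 11 erythrocyte models 9 were called higher and 0 lower, with a sum of 21878 and 16851 TPM in heart, against a median of 1456 and a highest of 105086 TPM (Ueno liver). The haem synthesis enzyme alas2.1 had 99.3 and 159 TPM in heart and 0.96, 12.7 and 517 TPM elsewhere (2.69 ± 0.32, adjusted p = 1.06e-05). The globin hba1.L had 11518 and 8031 TPM in heart and 74.8, 733 and 45039.9 TPM elsewhere (2.92 ± 0.74, adjusted p = 0.00923), a call lost when either heart was left out. The list gave 4 calls without the Taira heart and 5 without the Ueno heart. The part of blood in the differences of the other lists was not tested.

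White blood cell and nerve lists were small, and their shares of calls can be set against the 7.96% higher and 6.40% lower of all models. Listed symbols found were 4 of 15 for macrophages and granulocytes, 10 of 16 for lymphocytes and 11 of 18 for nerve. For thrombocytes they were 2 of 9, and for adipocytes 5 of 10. Of 7 macrophage and granulocyte models limma called 0 in either direction, with 1 higher and 0 lower at an unadjusted p under 0.05. Lymphocyte models gave 2 of 15 called higher, among them the kinase blk.L with 23.1 and 10.7 TPM in heart and 31.1 TPM in the Taira spleen library (2.69 ± 0.37, adjusted p = 4.76e-05), while the B cell factor pax5.S was at 0 in both hearts. Nerve and Schwann cell models gave 1 of 20 higher and 2 lower, led by the myelin protein mpz.L with 1.3 and 2.87 TPM in heart and 0.03, 7.43 and 352 TPM elsewhere (-1.94 ± 0.33, adjusted p = 3.65e-04). At an unadjusted p under 0.05, 6 nerve models were lower. Thrombocyte models gave 2 of 4 and adipocyte models 2 of 7 called higher. The thrombocyte and adipocyte counts, and the lower count for nerve, were 1 without the Ueno heart, and the lymphocyte count was 1 under median-of-ratios scaling.

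Carry-over from neighbouring organs was looked at through genes of lung, liver, pancreas and stomach. The list, with 22 tested models, summed to 26.9 and 5.84 TPM in the Taira and Ueno hearts, against a median of 164 and a highest of 178208 TPM (Taira pancreas). None was called higher, also at an unadjusted p under 0.05, and 5 were called lower, beside 6.40% of all models. These organs are themselves part of the mean that heart is set against. The calls therefore cannot measure carry-over, and only the sums in heart describe it. The Taira heart held 12 TPM of the stomach pepsinogen pga4.1, against 0.18 TPM in the Ueno heart. The thyroid and parathyroid list, with 2 tested models, summed to 0.24 and 0 TPM in heart.

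The genes that were lowest in heart relative to every other tissue included epithelial ones. Both hearts lay below all 26 other libraries for 18 models (0.0540%), 17 of them called lower. P-cadherin cdh3.L had 0 and 0.03 TPM in heart and 0.08, 5.21 and 116 TPM elsewhere (-2.65 ± 0.46, adjusted p = 5.22e-04). The fatty acid 2-hydroxylase fa2h.L had 0.15 and 0.11 TPM in heart and 0.32, 3.0 and 98.8 TPM elsewhere (-2.43 ± 0.31, adjusted p = 2.21e-05). The aminoacylase acy3.L had 0.25 and 0 TPM in heart and 0.36, 6.16 and 115 TPM elsewhere (-2.77 ± 0.38, adjusted p = 4.52e-05).

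The signal peptidase subunit sec11c.L had 4.33 and 3.16 TPM in heart and 5.19, 18.1 and 111 TPM elsewhere (-2.31 ± 0.36, adjusted p = 1.53e-04), so it was lower but detected. The water and glycerol channel aqp3.L had 0.31 and 0.12 TPM in heart and 0.35, 9.12 and 198 TPM elsewhere, and the tight junction protein occludin, ocln.S, had 0.05 and 0.03 TPM in heart and 0.1, 6.63 and 80.6 TPM elsewhere. The dicarboxylate transporter slc13a2.S was listed at 0 in both hearts. The calls of aqp3.L, ocln.S, slc13a2.S and ppfibp2-like.S, the last with 0.72 and 0.66 TPM in heart, were lost when either heart library was left out.

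Heart was then compared with muscle, the other striated muscle of the survey, using the same heart libraries. The hearts carried cardiac light chains, troponins and hormones, while muscle carried the fast skeletal filament genes. In this contrast 3337 models (10.02%) were called higher and 821 (2.46%) lower in heart, with a median difference of 0.40. Under median-of-ratios scaling, which brings that median to 0.00, the counts were 1876 higher and 1759 lower, so the share of higher calls changed to 51.6%, against 80.3% as deposited. With the dataset (Taira or Ueno) as a block, 5301 were higher and 1029 lower. With only the 4 heart and muscle libraries in the fit, 83 were higher and 69 lower. The higher count was 1515 without the Taira heart, 1710 without the Taira muscle and 2206 without the Ueno muscle.

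The list counts against muscle are to be read beside the 10.02% higher and 2.46% lower of all models in this contrast. Unless another fit is named, they are for TPM as deposited, while the counts of all models changed with scaling. Of 20 thick filament models, 9 were called higher and 8 lower against muscle. Of 12 thin filament models, 8 were higher and 3 lower. Cardiac troponin T tnnt2.L had 9309.7 and 2858 TPM in heart and 5.98 and 1.12 TPM in muscle, a difference of 10.39 ± 0.81 (adjusted p = 4.95e-08). The heavy chain myh15.L had 12759.6 and 928 TPM in heart and 0.56 and 0.07 TPM in muscle (11.38 ± 0.79, adjusted p = 9.63e-09). The peptide nppb.L had 2494 and 1358 TPM in heart and 0.18 and 0.34 TPM in muscle (10.52 ± 0.42, adjusted p = 7.52e-12). In the fit on the 4 libraries alone, tnnt2.L and myh15.L were not called and nppb.L was. No fold is given for nppa.L, myl7.L, myl7.S, myl3.L, tnni3.S and nppb.S, which are listed at 0 in both muscle libraries.

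Muscle exceeded heart in 20 of 22 fast skeletal models and heart exceeded muscle in 0, also at an unadjusted p under 0.05, with a median difference of -6.92. Fast troponin C tnnc2.S had 0.39 and 0.14 TPM in heart and 4573 and 2174 TPM in muscle (-11.29 ± 0.55, adjusted p = 1.00e-10). The fast regulatory light chain mylpf.S had 0.28 and 1.82 TPM in heart and 4686 and 4599 TPM in muscle (-11.26 ± 0.79, adjusted p = 1.18e-08). The calsarcin myoz1.L differed by -10.49 ± 0.61 (adjusted p = 1.00e-09) and phosphoglycerate mutase pgam2.S, with 0.25 and 0.09 TPM in heart and 1738 and 1018 TPM in muscle, by -10.16 ± 0.43 (adjusted p = 1.19e-11). All of these calls held in every alternative fit that was run for them. The calcium buffer pvalb.1.L and the heavy chain myh1-1-2.S were listed at 0 in both hearts, with 26502 and 3011 TPM of pvalb.1.L and 2684 and 341 TPM of myh1-1-2.S in muscle. The muscle form of a ribosomal protein, rpl3l.S, had 0 and 0.1 TPM in heart and 1601 and 1864 TPM in muscle.

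Beyond the filaments, the 32 Z disc models split into 8 called higher and 11 called lower against muscle. The 50 regulators split into 28 higher and 4 lower. Over all models 10.02% were called higher and 2.46% lower in this contrast. The receptor chrm2.1 differed by 6.87 ± 0.37 (adjusted p = 3.12e-10), hand2.L by 6.83 ± 0.51 (adjusted p = 2.62e-08) and pygm.S by 7.67 ± 0.46 (adjusted p = 1.27e-09). The intercalated disc list gave 7 higher and 0 lower of 17 models, and 11 higher in the fit with the dataset as a block. Few energy models were called between heart and muscle, but the muscle libraries differed widely from each other. The complex I list summed to 8362 and 29244 TPM in the Taira and Ueno muscle and to 9696 and 17460 TPM in the hearts. Few calls therefore do not show that the tissues are alike in these genes. Complex I gave 1 higher and 0 lower call of 49 models. Complexes II and III gave 0 and 0 of 13 (0 and 0 at an unadjusted p under 0.05). Complex IV gave 3 and 0 of 15, ATP synthase 0 and 1 of 25 and the TCA cycle 1 and 2 of 28. These small counts were not steady: without the Taira muscle the TCA cycle gave 7 lower calls, and without the Ueno muscle complex IV gave 6 higher ones.

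**Figure D3:**
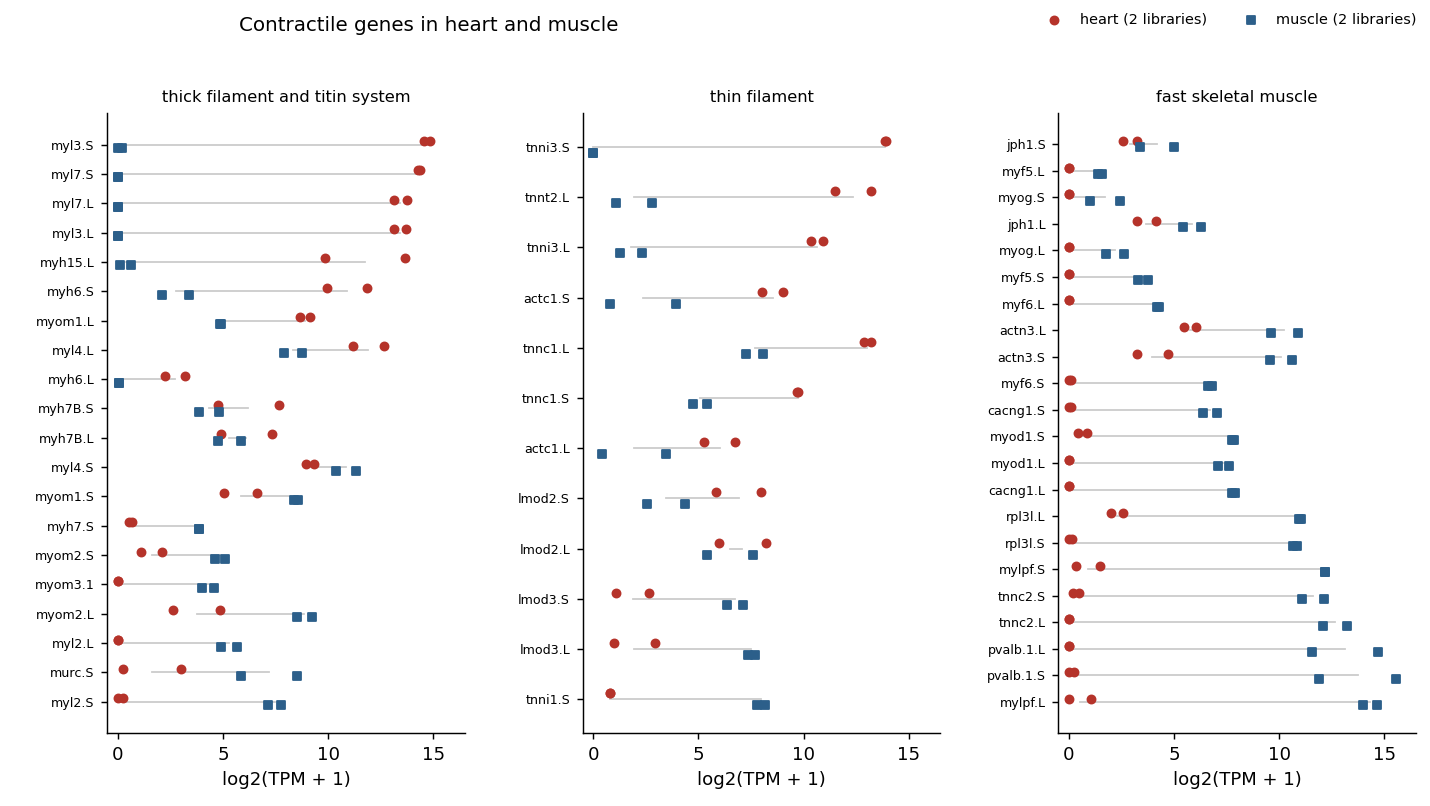
Values of both heart libraries (circles) and both muscle libraries (squares) as log2(TPM + 1) for each tested model of the thick filament, thin filament and fast skeletal lists, with a grey line between the group means. Models such as myl3.S, tnni3.S and tnnt2.L have circles at the right, squares lie to the right of the circles in 20 called fast skeletal models, and the copies of myl4 and myom1 fall on opposite sides.

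Most genes of the survey have an L and an S copy, and the heart could use the copies differently from other tissues. In 7749 testable pairs the log2 ratio of L to S copy was compared between heart and the other tissues. It shifted toward the L copy in 555 pairs (7.16%) and toward the S copy in 475 (6.13%). A pair that is silent elsewhere has a ratio near 0 there, because 1 TPM was added to each copy, so only 493 of 675 called pairs with at least 10 TPM in heart also averaged at least 10 TPM elsewhere. L and S copies share sequence, and the split of their reads is an estimate.

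Heart used mostly 1 copy of several of its own genes. The L copy of nppa had 15411 and 9031 TPM in heart and the S copy 26.5 and 12 TPM, a shift of 9.06 ± 0.20 (adjusted p = 1.20e-15). For the heavy chain myh6 the S copy was the main one, with 3699 and 995 TPM against 8.22 and 3.67 TPM of the L copy, a shift of -7.75 ± 0.40 (adjusted p = 8.25e-11). Outside heart both copies together averaged at most 2.6 TPM for nppa (eye) and 6.5 TPM for myh6 (muscle). At such levels the added 1 TPM pulls the ratio toward 0, so these shifts largely reflect the ratio in heart. The sodium and calcium exchanger gene slc8a1-like had 262 and 188 TPM of the S copy and 0.57 and 0.12 TPM of the L copy in heart (-6.40 ± 0.31, adjusted p = 5.08e-11). In kidney slc8a1-like had 8.69 and 8.17 TPM of S and 4.42 and 3.32 TPM of L, a smaller imbalance at a lower level.

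In other pairs the heart was more one-sided than the tissues set beside it here. The mutase pgam2 had 121 and 139 TPM of L and 0.25 and 0.09 TPM of S in heart, whereas muscle had 1211 and 680.2 TPM of L and 1738 and 1018 TPM of S, and the shift was 6.98 ± 0.17 (adjusted p = 2.56e-15). The potassium channel subunit kcng1 had 128 and 88.6 TPM of L and 0 and 0 TPM of S in heart, and brain used both, with 17.1 and 14.1 TPM of L and 24 and 26.7 TPM of S (6.83 ± 0.18, adjusted p = 8.59e-15). The sodium channel subunit scn3b was L in heart, at 114 and 123 TPM, and S in muscle, at 18.4 and 12.8 TPM (6.22 ± 0.24, adjusted p = 1.97e-12). Brain favoured the L copy of scn3b like heart, with 86.8 and 34.9 TPM of L and 8.83 and 4.4 TPM of S, and so did eye, with 16.6 and 6.77 TPM of L and 2.32 and 0.64 TPM of S. The axonal adhesion protein cntn1 was S in heart, at 90.5 and 22.4 TPM of S and 1.19 and 0.11 TPM of L, while brain had 239.7 and 54.5 TPM of S and 198 and 24.5 TPM of L (-4.85 ± 0.39, adjusted p = 5.10e-08).

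The reductase dhrs7b had 184 and 89.3 TPM of S and 17.1 and 15.9 TPM of L in heart, and muscle had the same order, with 87.3 and 108 TPM of S and 18.9 and 39.2 TPM of L. Brain had 0.12 and 0.58 TPM of S and 48.9 and 63.9 TPM of L, and the shift was -6.11 ± 0.37 (adjusted p = 7.94e-10). Glycogen phosphorylase pygm was S-led in heart, at 428 and 391 TPM of S against 165 and 143 TPM of L, and L-led in brain, at 78.6 and 76.6 TPM of S against 392 and 469 TPM of L. The titin cap tcap (-5.25 ± 0.36, adjusted p = 5.04e-09) and the methyltransferase smyd1 (6.70 ± 0.36, adjusted p = 1.75e-10) favoured the same copy in muscle as in heart.

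A description of copy preference, chosen after the values were seen, called a copy favoured in a tissue when both libraries had at least 10 TPM over both copies and a log2 ratio of at least 1 toward that copy. It counted 1211 pairs with a favoured copy in heart, of which 761 favoured L and 450 favoured S. Of these, 145 favoured the opposite copy in at least 1 other tissue. Among pairs with a favoured copy in both heart and the other tissue, the copies were opposite in 39 of 416 pairs for ovary, 27 of 675 for kidney and 11 of 579 for muscle. Skin (23 of 526), testis (18 of 437) and stomach (19 of 470) had shares like that of kidney. Without the Taira heart the shifts numbered 332 toward L and 277 toward S.

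**Figure D4:**
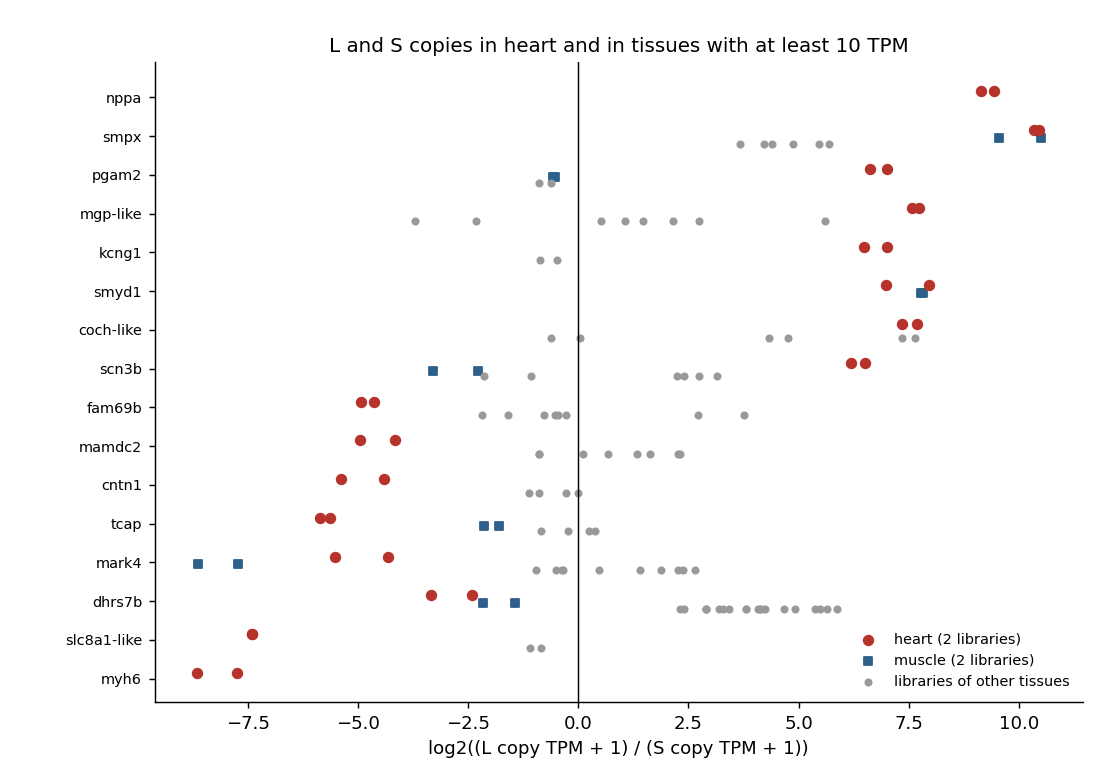
Ratio of L to S copy as log2((L TPM + 1)/(S TPM + 1)) for the 16 named pairs in both heart libraries (large circles), both muscle libraries (squares) and libraries of other tissues (small circles), shown only for tissues whose copies sum to at least 10 TPM. The heart points of dhrs7b lie left of 0 with those of muscle, against the other tissues at the right, and those of scn3b lie right of 0 with some other tissues, against muscle at the left.

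Finally, the hearts of both females differed from each other, with 1 library each and hence no test. The median of all models was -0.26 for the Ueno heart minus the Taira heart on the log2(TPM + 1) scale. Of all 33317 models tested, 21692 were lower and 7571 higher in the Ueno heart, and the list counts below are to be read beside these. Oxidative genes were higher in the Ueno heart, with median differences of 0.92 for complex I, 0.86 for complex IV and 0.91 for ATP synthase, where 25 of 25 models were higher in the Ueno heart. The same lists gave 1.80, 2.15 and 2.0 in muscle of the same frogs, and 1.29, 1.01 and 1.22 in liver. Among the 12 other tissues of the females, the median was negative in 1 for complex I, in 3 for complex IV and in 1 for ATP synthase.

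In the opposite direction, endothelial models had a median of -0.93 (35 of 36 lower in the Ueno heart), calcium handling models -0.98 and macrophage models -2.55. These signs were shared by other tissues of the frogs: among the 12 other tissues of the females, the median was negative in 11 for the endothelial list, in 10 for the calcium list and in 12 for the macrophage list. The macrophage median was -3.61 in liver and -2.12 in lung, and the endothelial median was -2.01 in lung. Single genes differed more: 113 models were below -3 and 13 above 3 on this scale. The heavy chain myh15.L was among the 113 models, at 928 TPM in the Ueno heart and 12759.6 TPM in the Taira heart. The donor, the dissection and the library preparation cannot be told apart here.

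**Figure D5:**
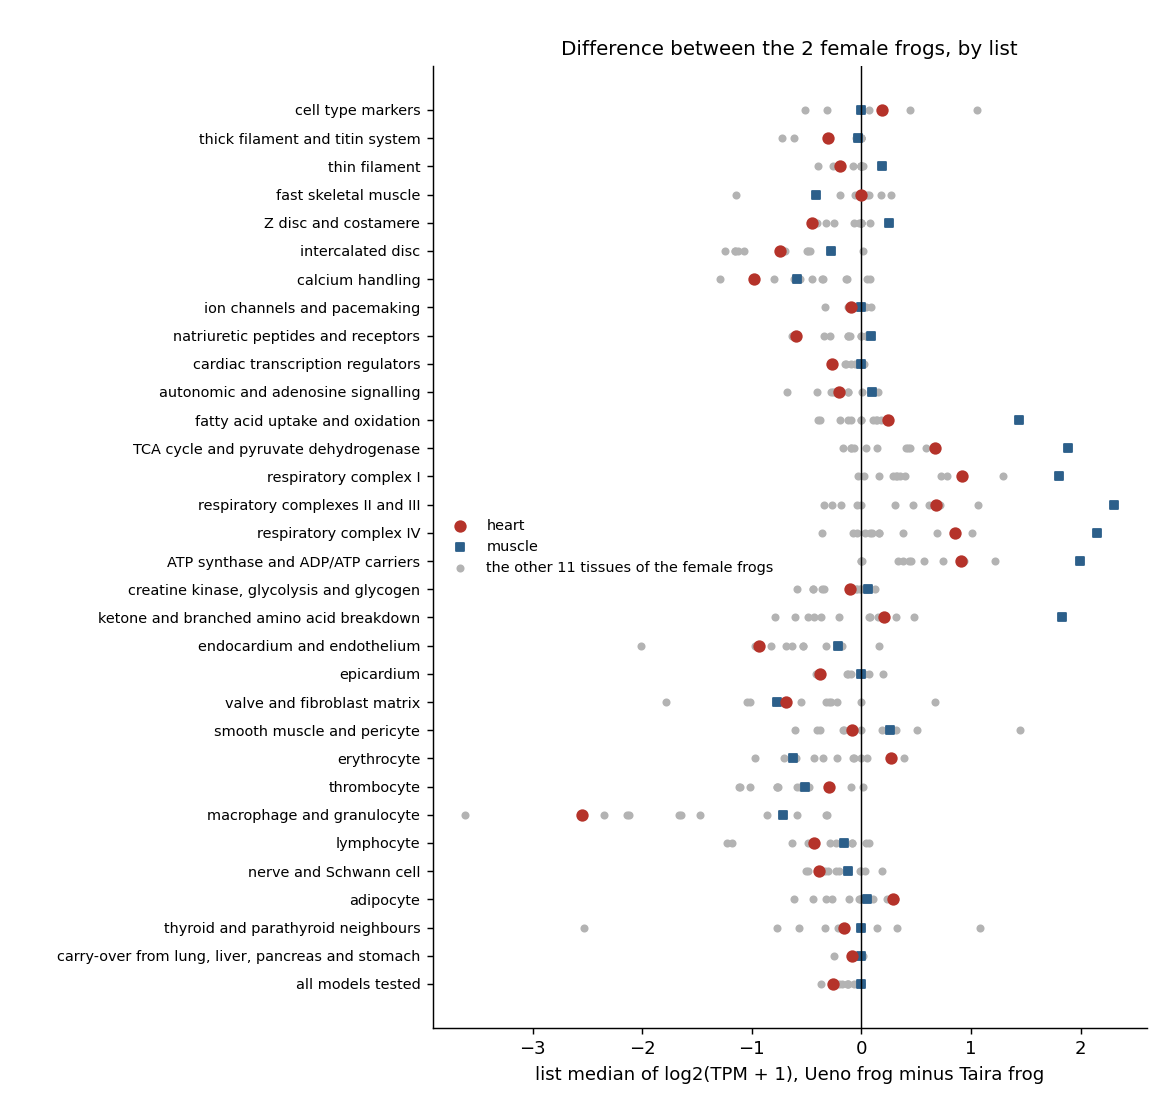
Median difference of each list in log2(TPM + 1), Ueno frog minus Taira frog, in heart (large circles), muscle (squares) and the other 11 tissues of the same females (small circles). The oxidative lists are right of 0 in heart and further right in muscle, and the endothelial, calcium handling and macrophage lists are left of 0 in heart and in most other tissues.

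Of the 403 models above all other libraries, 342 belong to none of the lists. The following were chosen among them after their values were seen. The corin gene corin-like.S, whose mammalian protein activates atrial natriuretic peptide on the surface of cardiac cells, had 233 and 95.2 TPM in heart and 0.03, 2.15 and 12.3 TPM elsewhere (5.47 ± 0.49, adjusted p = 3.05e-07). The myosin chaperone unc45b.L had 59.6 and 19.9 TPM in heart and 0.05 and 0.44 TPM in muscle (4.95 ± 0.25, adjusted p = 1.51e-10 from all tissues). Nebulette, the cardiac nebulin relative, had 261 and 91.4 TPM of nebl-like.2.S in heart and at most 11.6 TPM in the Ueno skin library (5.86 ± 0.52, adjusted p = 2.56e-07).

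Signalling and stress genes were among them too. The small heat shock gene hspb1.L had 1454 and 1455 TPM in heart and 330.4 and 1123 TPM in muscle (9.33 ± 0.29, adjusted p = 1.75e-13 from all tissues). The calcineurin inhibitor rcan2.S had 633 and 694 TPM in heart and at most 79.2 TPM in the Ueno ovary library (6.52 ± 0.42, adjusted p = 3.54e-09). The GTPase rrad.L, which restrains calcium channels in mammals, had 231 and 201 TPM in heart and 50.0 and 58.7 TPM in muscle (6.01 ± 0.22, adjusted p = 1.77e-12 from all tissues).

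The angiotensin receptor agtr2.L had 211 and 158 TPM in heart and at most 30.7 TPM in the Ueno spleen library (6.01 ± 0.32, adjusted p = 2.36e-10). The cardiac kinase tnni3k was found in both copies, with 38.5 and 25.2 TPM of tnni3k.S and 32.8 and 11.3 TPM of tnni3k.L in heart and at most 1.69 TPM in the Ueno muscle library of the S copy. The titin splicing factor rbm20.L had 45.2 and 9.63 TPM in heart and at most 3.06 TPM in the Ueno muscle library (3.80 ± 0.36, adjusted p = 5.15e-07). The ubiquitin ligase rnf207.L, a QT interval gene in man, had 153 and 131 TPM in heart and at most 8.54 TPM in the Taira ovary library (6.52 ± 0.43, adjusted p = 4.59e-09).

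Some models above all other libraries lie next to each other. Of the 281 models above all other libraries with a symbol, 158 could be placed by symbol in the RefSeq gene order of the assembly Xenopus_laevis_v10.1, and 4 pairs of them were direct neighbours. They were nppb.L with nppa.L, nppa.S with nppb.S, ndufs6.L with irx4.L, and pygm.S with acss1.S. How many such pairs an equal number of other models would give was not tested. The acetyl-CoA synthetase acss1.S had 34.1 and 25.6 TPM in heart and 13.7 and 17 TPM in muscle, a heart excess like that of pygm.S in direction. The libraries do not keep strand, so reads of overlapping neighbours would not be told apart.

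Some of the most abundant heart models have no gene name. Of the 403 models above all other libraries 122 (30.3%) are unnamed, beside 33.4% of all tested models. The second most abundant model in heart, Xelaev18004681m, had 23783 and 19036 TPM in the Taira and Ueno hearts, and the fifth, Xelaev18001106m, had 13863 and 14630 TPM. Muscle held both at like levels, with 20965 and 25201 TPM of Xelaev18004681m and 9469 and 13234 TPM of Xelaev18001106m in its Taira and Ueno libraries. In total 137 models reached a heart mean of 1000 TPM and 1118 reached 100 TPM.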

How the data were processed

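RNA was measured in 28 libraries of 14 tissues, 2 libraries per tissue. Per the labels' protocols, polyadenylated RNA was sequenced on an Illumina HiSeq instrument without keeping strand, so antisense partners, L and S copies and members of gene families can share reads. The deposited values are TPM per gene model, made by the authors with BWA 0.7.10 and RSEM 1.2.19 per the submitters' processing notes, which give no role or order. The name of the deposited values refers to JGI cDNA models with BWA-MEM and RSEM, while the processing notes give neither the aligner's target nor the genome build. TPM keeps no read depth, so the depth is unknown and no counting intervals are given.

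Samples were grouped by tissue label, with the Taira library as replicate 1 and the Ueno library as replicate 2. Models of at least 1 TPM in at least 2 libraries were fitted on log2(TPM + 1) with limma 3.58.1 in R 4.3.3, 1 mean per tissue over all 28 libraries with 14 residual degrees of freedom, variances moderated with a trend, and Benjamini-Hochberg adjustment over all models of a contrast. The contrasts were heart minus the mean of 13 tissue means, heart minus muscle, and the log2 ratio of L to S copy in heart minus that in the other tissues. All of them share the heart libraries. Tables and plots were made with Python 3.11.15, pandas 2.3.3 and matplotlib 3.10.9, and the fit was tested on simulated data.

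The replicate numbers pair the libraries by frog, since the series' design names 1 female per dataset. The Ueno minus Taira difference of heart correlated with that of each of 12 other female tissues (lowest 0.181, median 0.502, highest 0.624 across models, which are not independent replicates). The text names models by fixed rules: the 15 leading higher and 8 leading lower models, up to 4 called and 3 uncalled members per list, any member of lists of 20 or fewer models, other copies, the 10 largest differences from muscle per direction and the 8 largest copy shifts per direction. Further list members and the genes of no list were chosen after their values were seen. The members and the 31 gene lists were chosen with earlier results of these data known. Alternatives covered pseudocounts, filters, scalings, the dataset block, other tissue sets and leaving out each library. No sequence was used, and gene positions served only for the order of neighbours.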

Additional observations from a re-analysis of the deposited data

Results flagged for a closer look

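The pepsinogen pga4.1, a stomach digestive enzyme of the carry-over list, moved in opposite directions in the frogs. Heart minus the mean of the other tissues was 1.55 in the Taira libraries alone and -1.13 in the Ueno libraries alone on the log2(TPM + 1) scale. The hearts held 12 and 0.18 TPM in the Taira and Ueno libraries. Each value rests on 1 heart library, and the difference between the frogs was not tested.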

How the results depend on the processing

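With 2 hearts, leaving out one leaves 1 heart library that is assumed to vary like the other groups. Leaving out each of the 28 libraries in turn gave 1421 to 2834 higher and 890 to 2376 lower models for heart against the other tissues, 1515 to 3893 higher and 622 to 877 lower against muscle, and 332 to 572 shifts toward L and 277 to 505 toward S. A pseudocount of 5 TPM gave 693 lower models against the other tissues, 1821 higher against muscle and 342 and 238 copy shifts. Against muscle, median-of-ratios scaling gave 1876 higher and 1759 lower models, quantile normalization 1744 and 1554, and the 4 heart and muscle libraries alone 83 and 69. With the replicate block, in which the dataset is a term, 5301 models were higher against muscle. The block gave 3246 higher and 2645 lower models against the other tissues and changed no call of a gene named with its test. Of 403 models above all other libraries, 168 were at least 2 times every other library in TPM + 1, and 712 lay above the others when muscle was left out. Of 18 below all others, 0 kept that margin of 2 times, and 62 lay below the others when muscle was left out. Of 78 genes named with a difference from the other tissues, 76 were called in every alternative, while hba1.L and oxct1.L lost their calls when either heart was left out. Called genes named without a printed difference are outside this count. Several of them lost their calls when a heart was left out, among them myoz1.L, cryab.S, nr2f1.L, postn.L, lmod3.L, lmod3.S, aqp3.L, ocln.S, slc13a2.S and ppfibp2-like.S. Of 10 named against muscle, 8 were called in every alternative, and tnnt2.L and myh15.L were not called with the 4 heart and muscle libraries alone. The 10 copy shifts named with a test were called in every alternative. No called difference of a named gene changed sign, while the near-zero medians of the autonomic list (0.08) and of the creatine kinase, glycolysis and glycogen list (0.07) were -0.04 and -0.01 with a pseudocount of 5 TPM and -0.06 and -0.23 with pancreas left out. Depth cannot be judged from TPM.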
